A study of Homo sapiens with 8 samples.

Results

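The genes described here are 33 known targets of the hypoxia-inducible factors (HIF) that lie outside glycolysis. They were chosen by name, leaving out glycolytic enzymes, glucose transporters and prolyl hydroxylases, and all 33 were found among the 25369 genes of the deposited expression table. RNA was sequenced from EPC2-hTERT, an established line of human esophageal epithelium made immortal by telomerase, after lentiviral transduction with a control short hairpin RNA (shCtrl) or a hairpin RNA against HIF1A (HIF1A-KD). Each line gave 4 libraries, numbered 1 to 4 in the labels, and what else the libraries of a number share is not stated. All cells grew for 2 days to confluence on membranes with 0.4 µm pores, then for 5 days with 1.8 mM calcium chloride and for 4 days with air above them, a culture in which keratinocytes form layers. The treatment text names a DMSO vehicle and dimethyloxalylglycine, an inhibitor of the oxygen-sensing hydroxylases, for 18 h before harvest, and assigns neither to a library. The number of clones behind each line and whether the libraries came from separate cultures are not given in the sources used here, so every p-value measures the spread between these libraries.

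HIF is a pair of proteins, an oxygen-regulated alpha subunit (HIF-1α from HIF1A or HIF-2α from EPAS1) and the stable partner ARNT. When oxygen is present, prolyl hydroxylases mark the alpha subunit for destruction, and when oxygen is scarce the pair binds DNA at a short core motif near its target genes. Besides glycolysis, those targets serve blood vessel growth, acid handling, removal of mitochondria, storage of glycogen and lipid, collagen maturation and the resetting of transcription and chromatin. HIF-1α and HIF-2α share many of these targets.

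No target passed the test between the lines. The lowest log2 changes were those of CA9 (−1.21), BNIP3L (−0.96), STC2 (−0.90) and P4HA1 (−0.67), and the highest was that of ZNF395 (0.35). Levels are RPKM, reads scaled to the length of the gene and to the reads of the library, and changes are differences of log2(RPKM + 0.1), HIF1A-KD minus shCtrl, which understates the change of low genes. Of the 33 targets 32 reached 0.5 RPKM in at least 4 libraries and were tested. With limma, 0 of 32 passed an adjusted p of 0.05, where 5 of all 11899 tested genes (0.042%) passed. With the library number as a block, 0 of 32 passed, where 218 genes (1.83%) passed. The block takes libraries of the same number as pairs, which the labels do not state. Over all tested genes, shCtrl 3 went more with HIF1A-KD 4 (correlation of deviations 0.463) than with HIF1A-KD 3 (0.252). Likewise shCtrl 4 went more with HIF1A-KD 3 (0.613) than with HIF1A-KD 4 (0.257). Blocked fits, counts by number and shares of spread by number rest on this unsure pairing. Limma-voom, run on reads recovered from the RPKM, called 0 of 32, both without the block (0.0424% of 11802 genes) and with it (2.97%). At an unadjusted p of 0.05 and without the block, 4 targets were lower in HIF1A-KD (BNIP3, BNIP3L, P4HA1 and PLOD2), 12.5% of those tested against 3.11% of all genes, and 0 were higher, against 4.69% of all genes. With the block 7 were lower, adding INSIG2, P4HA2 and DDIT4 (21.9% against 7.74%), and 3 were higher, FAM162A, ZNF395 and WSB1 (9.38% against 11.9%). At an unadjusted p of 0.05 limma-voom without the block gave the same 4 targets as lower (12.5% against 4.0% of all genes) and 0 as higher (3.55% of all genes). With the block it gave 9 as lower, the 7 named and CA9 and GYS1 (28.1% against 11.1%), and 2 as higher, FAM162A and ZNF395 (6.25% against 9.34%).

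The authors' deposited table of the same comparison lists 4 of the 33 targets as lower at an adjusted p of 0.05, 12.1% where 5.08% of its 13627 genes are lower, and 0 as higher, where 3.94% are. In the authors' deposited table these 4 are P4HA2 (log2 change −0.45, adjusted p = 0.00259), BNIP3L (−0.82, 0.00824), PLOD2 (−0.62, 0.0168) and INSIG2 (−0.54, 0.0278). That table was made from these same libraries, and its values are not independent of those given here. Its smallest listed value among targets with a positive change is an adjusted p of 0.238, for ZNF395, again in the authors' deposited table.

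On RPKM as deposited, the targets as a whole had no common direction. The log2 change lay below 0 for 17 of the 32 and above 0 for 15, with a median of −0.04, beside 41.3% of all tested genes below 0 and a median of 0.06. After rescaling the libraries by median-of-ratios size factors 21 targets lay below 0 and 11 above, with a median of −0.11, beside 50.1% of all genes below 0. Limma-voom put 20 targets below 0 (median −0.11), beside 49.4% of all genes. With the block it put 22 below 0 (median −0.15), beside 49.6%. With a replicate left out of limma the targets' median took either sign. It was −0.195 without shCtrl 4 and 0.0449 without HIF1A-KD 3. In the limma fit with the block it was 0.0139 without number 2 and 0.0243 without number 3. Among the targets, 6 were lower in HIF1A-KD in all 4 numbers (BNIP3L, GYS1, INSIG2, P4HA2, PLOD2 and DDIT4), 18.8% against 10.7% of all genes. Another 3 were higher in all 4 numbers (FAM162A, ZNF395 and WSB1), 9.38% against 18.6% of all genes. The 4 libraries of each group did not overlap for 1 target, PLOD2, which was lower (3.12% against 2.13% of all genes), and for 0 targets that were higher (3.27% of all genes).

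**Figure D1:**
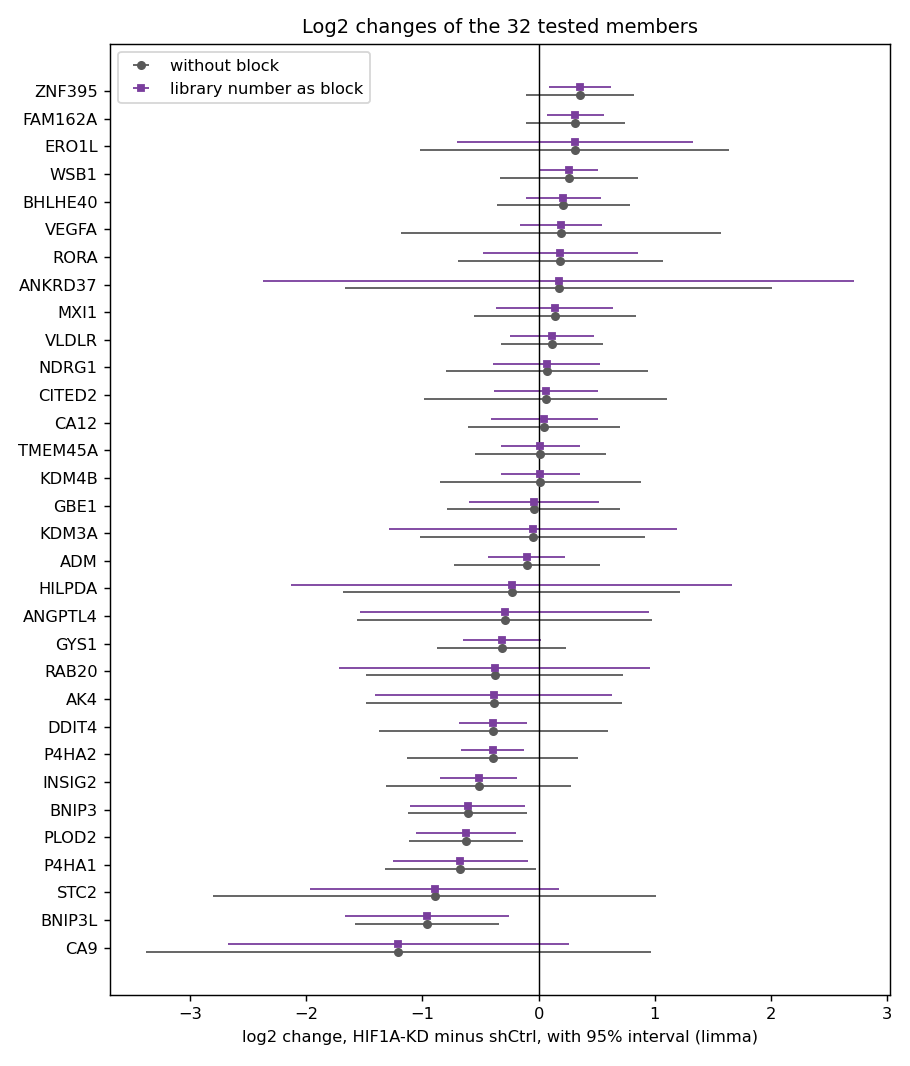
Log2 change of each tested target between HIF1A-KD and shCtrl on the horizontal axis, with the 95% interval from limma, without the block (grey circles) and with the library number as a block (purple squares). The changes run from −1.21 for CA9 to 0.35 for ZNF395, and the interval without the block leaves out 0 for BNIP3, PLOD2, P4HA1 and BNIP3L.

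HIF1A itself checks the labels. Its mean was 40.8% of that in shCtrl, its log2 change was −1.34 and it was lower in HIF1A-KD in all 4 numbers, although the groups overlapped. It passed the test with the block (adjusted p = 0.0253) and did not without it (adjusted p = 0.319). In the blocked fit HIF1A did not pass without number 1 (0.107), number 2 (0.187) or number 4 (0.0524). EPAS1 had nearly the same mean in both lines, with a log2 change of 0.07, and its 95% interval ran from −0.56 to 0.70. ARNT had a log2 change of 0.34 (adjusted p = 0.780). Of the 10 squamous epithelial markers all were tested and expressed, and CDH1, which encodes E-cadherin, passed with the block (log2 change −0.79, adjusted p = 0.0318 with the block, 0.545 without) but did not without number 1 (0.119), 2 (0.212) or 3 (0.0545). The smallest library, HIF1A-KD 4, had 38068729 reads and the largest, HIF1A-KD 2, had 65326907.

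The promoters of the targets hold the HIF core motif more often than promoters at large. The genes were chosen as known HIF targets, so this describes the list and is not a result of these libraries. RefSeq promoter windows were read as the 250 bases before the first listed start of each gene (build GRCh38.p14). They were matched for 27 of the 33, ERO1L under its current symbol ERO1A. No window was matched for VEGFA, BNIP3L, HILPDA, ZNF395, NDRG1 and RAB20. ACGTG was found on either strand in 17 of the 27 (63.0%), in 18.7% of all 27305 promoters of that length and in 23.8% of the 8801 belonging to tested genes. GCGTG was found in 15 of 27 (55.6%), in 31.9% of all promoters and in 45.8% of those of tested genes. At least 1 of the motifs was in 23 of 27 (85.2%), beside 43.1% of all promoters and 57.9% of those of tested genes. The word CACGTG holds ACGTG on each strand and counts for both. A match is a description of the letters and not a site of binding. P4HA2, one of the 4 targets in the authors' deposited table, had neither motif in its window, while MXI1, RORA and TMEM45A had none either. The window of RORA appears to lie far inside the gene, and that of P4HA2 may not be at its outermost start. Windows of other starts were not read, so the motif may be present there. Shown are 3 targets with lower values in HIF1A-KD (BNIP3, P4HA1 and PLOD2) and 2 that were high in single libraries of both lines (ANKRD37 and KDM3A), each 5′ to 3′ on the strand of its gene, with ACGTG and GCGTG of either strand in capitals. BNIP3 lies at chr10:131981924-131982173 (minus strand), P4HA1 at chr10:73096867-73097116 (minus), PLOD2 at chr3:146161185-146161434 (minus), ANKRD37 at chr4:185396591-185396840 (plus) and KDM3A at chr2:86441121-86441370 (plus).
BNIP3: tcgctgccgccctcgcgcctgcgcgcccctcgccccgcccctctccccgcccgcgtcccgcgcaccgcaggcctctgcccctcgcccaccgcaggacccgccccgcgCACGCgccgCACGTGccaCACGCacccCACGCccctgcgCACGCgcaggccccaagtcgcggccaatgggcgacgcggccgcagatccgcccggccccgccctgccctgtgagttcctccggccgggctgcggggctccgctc
P4HA1: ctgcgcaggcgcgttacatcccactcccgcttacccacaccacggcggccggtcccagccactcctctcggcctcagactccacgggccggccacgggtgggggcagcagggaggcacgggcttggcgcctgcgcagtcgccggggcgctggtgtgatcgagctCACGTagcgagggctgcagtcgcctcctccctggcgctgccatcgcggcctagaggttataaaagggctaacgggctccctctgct
PLOD2: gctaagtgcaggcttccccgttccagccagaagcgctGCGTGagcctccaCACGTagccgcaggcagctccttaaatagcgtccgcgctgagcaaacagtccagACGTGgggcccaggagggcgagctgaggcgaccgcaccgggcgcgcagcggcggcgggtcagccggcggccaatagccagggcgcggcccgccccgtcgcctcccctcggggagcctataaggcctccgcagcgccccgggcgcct
ANKRD37: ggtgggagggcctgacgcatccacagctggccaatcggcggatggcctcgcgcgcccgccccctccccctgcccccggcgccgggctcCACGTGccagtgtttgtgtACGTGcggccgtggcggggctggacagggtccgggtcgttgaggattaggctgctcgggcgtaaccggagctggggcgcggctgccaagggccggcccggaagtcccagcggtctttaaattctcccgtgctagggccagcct
KDM3A: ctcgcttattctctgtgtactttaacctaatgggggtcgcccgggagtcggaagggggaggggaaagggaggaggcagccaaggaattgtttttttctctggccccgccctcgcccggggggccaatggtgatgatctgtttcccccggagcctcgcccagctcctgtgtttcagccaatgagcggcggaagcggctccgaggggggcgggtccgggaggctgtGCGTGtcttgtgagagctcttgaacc
BNIP3 has the densest cluster of these 5, with 4 matches to GCGTG around a CACGTG, which counts as 2 matches to ACGTG. PLOD2 has 2 matches to ACGTG and 1 to GCGTG, ANKRD37 has 3 to ACGTG, and P4HA1 and KDM3A have 1 match each.

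Secreted signals showed large spread among libraries of the same line and 0 of 4 passed either fit. VEGFA encodes the vascular endothelial growth factor that draws in blood vessels. VEGFA held 201, 33.01, 40.1 and 52.3 RPKM in shCtrl 1 to 4 and 178, 49.6, 53.3 and 50.2 RPKM in HIF1A-KD 1 to 4. Library 1 stood far above every other library of its line, and the groups overlapped. The log2 change was 0.19 with a 95% interval from −1.19 to 1.57, and from −0.16 to 0.55 with the block. Of its spread over the 8 libraries 95.9% lay between library numbers and 1.09% between the lines. Of 5 endothelial markers VWF alone reached 0.5 RPKM, and it too was highest in the libraries numbered 1, with 15.3 RPKM (shCtrl 1) and 12.6 RPKM (HIF1A-KD 1), while the summed level of all 5 ran from 0.753 to 15.6 in shCtrl and from 1.39 to 12.8 RPKM in HIF1A-KD. The other 4 endothelial markers stayed below 0.5 RPKM in every library, and all 8 libraries were made from the epithelial line EPC2-hTERT. What the level of VWF has to do with that of VEGFA was not tested. In these bulk samples more cells with VEGFA and more RNA per cell cannot be told apart.

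STC2, which encodes the secreted glycoprotein stanniocalcin-2, held 55.0, 5.92, 8.10 and 18.3 RPKM in shCtrl 1 to 4. In HIF1A-KD 1 to 4 STC2 held 23.7, 2.22, 14.1 and 5.21 RPKM. It was highest in library 1 of each line, lower in HIF1A-KD in numbers 1, 2 and 4 and higher in number 3. The log2 change of STC2 was −0.90 (SE 0.85, adjusted p = 0.921, 0.325 with the block). Without number 3 STC2 passed the fit with the block (adjusted p = 0.0196). ADM, the gene of the vessel-relaxing peptide adrenomedullin, held 33.8 ± 8.19 in shCtrl and 32.3 ± 10.9 RPKM in HIF1A-KD (SD, n = 4 each). ANGPTL4, which encodes an inhibitor of lipoprotein lipase, held 34.9, 39.5, 92.3 and 46.0 RPKM in shCtrl 1 to 4 and 16.4, 45.8, 29.1 and 119 RPKM in HIF1A-KD 1 to 4. Its highest values were thus in shCtrl 3 and HIF1A-KD 4.

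The carbonic anhydrases, enzymes that convert carbon dioxide to bicarbonate and protons at the cell surface, differed from each other by level. CA12 held 36.1 ± 14.2 in shCtrl and 35.9 ± 7.84 RPKM in HIF1A-KD (SD, n = 4 each), with a log2 change of 0.05 and a 95% interval from −0.61 to 0.70. CA9, widely used as a marker of hypoxic tissue, held 1.57, 3.32, 0.160 and 0.242 RPKM in shCtrl 1 to 4. In HIF1A-KD 1 to 4 CA9 held 0.226, 0.690, 0.0 and 0.592 RPKM. These values rest on 118, 223, 13 and 18 reads in shCtrl and on 16, 70, 0 and 35 reads in HIF1A-KD. HIF1A-KD 3 had no read, and a count of 0 allows up to 3 reads, or 0.0409 RPKM, by counting error alone. CA9 was lower in HIF1A-KD in numbers 1, 2 and 3 and higher in number 4, and the groups overlapped. Its log2 change of −1.21 was the lowest among the tested targets and had an SE of 0.96 (adjusted p = 0.882, 0.335 with the block).

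Of the genes for mitochondrial proteins, BNIP3 and BNIP3L had lower values in HIF1A-KD and FAM162A higher ones, and 0 of 4 passed either fit. In the hg19 coordinates of the deposited table BNIP3 spans chr10:133781204-133795435 on the minus strand, and BNIP3L lies on chromosome 8. BNIP3 and BNIP3L encode receptors on the outer mitochondrial membrane that mark mitochondria for degradation. BNIP3L held 113, 62.0, 74.7 and 68.5 RPKM in shCtrl 1 to 4 and 28.5, 36.7, 38.3 and 62.2 RPKM in HIF1A-KD 1 to 4. HIF1A-KD 4 lay just above the lowest control, shCtrl 2, and the other 3 HIF1A-KD libraries lay below every control. The HIF1A-KD mean was 52.0% of the shCtrl mean, with a log2 change of −0.96 and a 95% interval from −1.58 to −0.34. BNIP3L had the smallest adjusted p of all targets without the block, at 0.341, and 0.157 with it. Without shCtrl 3 and HIF1A-KD 4 the log2 change of BNIP3L was −1.19 (adjusted p = 0.584). BNIP3 held 16.9, 24.7, 23.2 and 13.9 RPKM in shCtrl 1 to 4 and 11.3, 13.9, 10.4 and 15.0 RPKM in HIF1A-KD 1 to 4. It was lower in HIF1A-KD in numbers 1 to 3 and slightly higher in number 4. Its log2 change was −0.61 (SE 0.23, adjusted p = 0.513, 0.180 with the block).

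FAM162A, a mitochondrial protein gene, held 52.1, 80.0, 51.8 and 61.8 RPKM in shCtrl 1 to 4 and 63.3, 85.3, 75.3 and 79.3 RPKM in HIF1A-KD 1 to 4. It was higher in HIF1A-KD in every number, by 0.09 to 0.54 on the log2 scale, while the groups overlapped. The log2 change was 0.32 (SE 0.19, adjusted p = 0.788, 0.163 with the block). AK4, a nucleotide kinase of the mitochondrial matrix, held 6.94 ± 3.70 in shCtrl and 5.38 ± 2.97 RPKM in HIF1A-KD (SD, n = 4 each). It was lower in HIF1A-KD in numbers 1 to 3 and higher in number 4. GYS1, which encodes glycogen synthase, held 14.1 ± 4.27 in shCtrl and 11.1 ± 2.16 RPKM in HIF1A-KD and was lower in all 4 numbers (log2 change −0.32, adjusted p = 0.872, 0.276 with the block). GBE1, the branching enzyme, held 8.52 ± 3.70 and 7.70 ± 1.33 RPKM (log2 change −0.04).

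**Figure D2:**
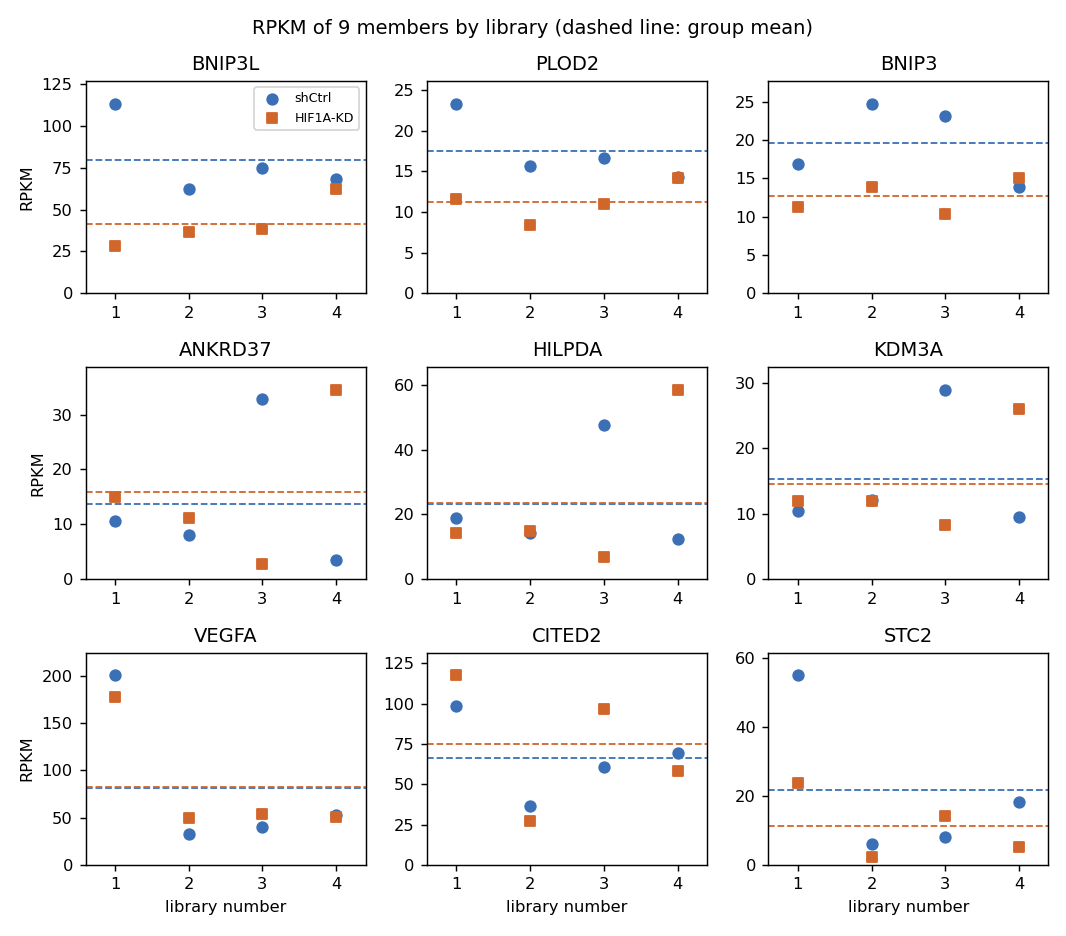
RPKM of 9 targets (vertical axes) against the library number (horizontal axes), with circles for shCtrl, squares for HIF1A-KD and dashed lines for group means. The top row shows genes with lower HIF1A-KD means and the middle row genes highest in shCtrl 3 and HIF1A-KD 4. The bottom row shows genes highest in library 1 of each line, such as VEGFA at 201 and 178 RPKM.

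Among the collagen and protein folding enzymes, 3 collagen hydroxylases had lower values in HIF1A-KD. P4HA1 and P4HA2 encode the catalytic subunits of prolyl 4-hydroxylase, and PLOD2 a lysyl hydroxylase that sets the cross-links of collagen. The table places PLOD2 at chr3:145787228-145879282 and P4HA1 at chr10:74766980-74856732, both minus strand, and P4HA2 at chr5:131528304-131563556, minus strand (hg19). PLOD2 held 23.3, 15.7, 16.7 and 14.3 RPKM in shCtrl 1 to 4 and 11.6, 8.41, 11.02 and 14.1 RPKM in HIF1A-KD 1 to 4. Every HIF1A-KD library lay below every control, although HIF1A-KD 4 and shCtrl 4 differed by 0.01 on the log2 scale. The log2 change was −0.63 with a 95% interval from −1.12 to −0.13 (adjusted p = 0.455, 0.139 with the block). With the block and without number 4, PLOD2 had an adjusted p of 0.0499.

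P4HA1 held 9.58, 16.3, 14.8 and 9.14 RPKM in shCtrl 1 to 4 and 5.59, 9.45, 5.78 and 10.5 RPKM in HIF1A-KD 1 to 4. It was lower in HIF1A-KD in numbers 1 to 3 and higher in number 4 (log2 change −0.67, SE 0.29, adjusted p = 0.620, 0.199 with the block). P4HA2 held 20.2, 46.0, 40.3 and 47.5 RPKM in shCtrl 1 to 4 and 17.2, 29.1, 35.4 and 33.4 RPKM in HIF1A-KD 1 to 4. P4HA2 was lower in all 4 numbers, library 1 was the lowest of each line, and the groups overlapped (log2 change −0.40, SE 0.33, adjusted p = 0.894, 0.139 with the block). LOX, an enzyme that cross-links collagen outside the cell, was low in this epithelium, with 25 to 103 reads in a library. It ranged from 0.126 to 0.364 in shCtrl and from 0.101 to 0.271 RPKM in HIF1A-KD and was not tested. The fibroblast marker COL1A1, a collagen chain gene, ranged from 21.2 to 27.7 in shCtrl and from 14.1 to 19.2 RPKM in HIF1A-KD, with no overlap (adjusted p = 0.319, 0.0920 with the block). The other 6 of 7 fibroblast markers stayed below 0.5 RPKM in every library.

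ERO1L, which encodes the oxidase that forms disulfide bonds in the endoplasmic reticulum, went the other way from the hydroxylases on average. ERO1L held 26.1, 65.2, 145 and 82.1 RPKM in shCtrl 1 to 4 and 40.2, 102, 59.5 and 197 RPKM in HIF1A-KD 1 to 4. The libraries of each line spread at least 4.90-fold from lowest to highest, with the peaks in shCtrl 3 and HIF1A-KD 4. The log2 change was 0.31 with a 95% interval from −1.02 to 1.64 (adjusted p = 0.985).

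The lipid genes took different courses. INSIG2, which encodes a membrane protein that holds back sterol synthesis, held 11.5, 9.68, 5.11 and 6.35 RPKM in shCtrl 1 to 4. In HIF1A-KD 1 to 4 INSIG2 held 7.09, 7.79, 3.04 and 5.01 RPKM. It was lower in HIF1A-KD in all 4 numbers, and in both lines libraries 1 and 2 lay above libraries 3 and 4, so the groups overlapped. The log2 change was −0.52 (SE 0.35, adjusted p = 0.832). With the block INSIG2 had the smallest adjusted p of the targets, 0.121. HILPDA, a lipid droplet protein gene, held 18.8, 14.4, 47.5 and 12.2 RPKM in shCtrl 1 to 4 and 14.1, 14.7, 6.66 and 58.6 RPKM in HIF1A-KD 1 to 4. A single library of each line was thus high. VLDLR, a lipoprotein receptor gene, varied little, with 11.01 ± 2.11 in shCtrl and 11.8 ± 1.64 RPKM in HIF1A-KD (SD, n = 4 each, 95% interval of the log2 change from −0.32 to 0.55).

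The 7 regulators of transcription and chromatin had a median log2 change of 0.14, and 0 of 7 passed either fit. BHLHE40, which encodes a basic helix-loop-helix repressor also known as DEC1, held 139, 97.9, 117 and 126 RPKM in shCtrl 1 to 4 and 182, 84.7, 168 and 140 RPKM in HIF1A-KD 1 to 4. It was higher in HIF1A-KD in numbers 1, 3 and 4 and lower in number 2 (log2 change 0.21, adjusted p = 0.962). CITED2 encodes a protein that competes with HIF-1α for the coactivators CBP and p300. CITED2 held 98.3, 36.7, 60.9 and 69.3 RPKM in shCtrl 1 to 4 and 118, 27.5, 96.4 and 58.0 RPKM in HIF1A-KD 1 to 4. Libraries 1 and 2 were the highest and lowest of each line, and 89.8% of its spread lay between library numbers (log2 change 0.06, 95% interval from −0.98 to 1.11). ZNF395, a zinc finger gene, held 12.4, 19.2, 19.0 and 18.7 RPKM in shCtrl 1 to 4 and 17.7, 21.6, 21.9 and 27.1 RPKM in HIF1A-KD 1 to 4. It was higher in HIF1A-KD in all 4 numbers, and shCtrl 1 lay below the rest. Its log2 change of 0.35 was the highest among the tested targets (SE 0.21, adjusted p = 0.778, 0.162 with the block).

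KDM3A and KDM4B encode histone demethylases that use oxygen. KDM3A held 10.4, 12.1, 28.9 and 9.49 RPKM in shCtrl 1 to 4 and 11.9, 11.9, 8.18 and 26.0 RPKM in HIF1A-KD 1 to 4. Outside shCtrl 3 and HIF1A-KD 4 its values stayed between 8.18 and 12.1 RPKM. KDM4B held 8.90 ± 4.79 in shCtrl and 8.59 ± 3.31 RPKM in HIF1A-KD (SD, n = 4 each), with 95.5% of its spread between library numbers. MXI1, an antagonist of MYC, held 17.8 ± 7.80 and 18.2 ± 2.38 RPKM. RORA, a nuclear receptor gene, held 1.94 ± 0.98 and 2.13 ± 0.72 RPKM.

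NDRG1, DDIT4 and WSB1 act in stress and growth control. NDRG1, a differentiation and stress gene, was the most abundant target. NDRG1 held 364, 623, 802 and 643 RPKM in shCtrl 1 to 4 and 304, 696, 618 and 1083 RPKM in HIF1A-KD 1 to 4. The lowest library of each line was number 1 and the highest were shCtrl 3 and HIF1A-KD 4 (log2 change 0.07, 95% interval from −0.80 to 0.94). DDIT4, which encodes REDD1, an inhibitor of mTORC1 signalling, held 246, 240.4, 107 and 94.3 RPKM in shCtrl 1 to 4. In HIF1A-KD 1 to 4 DDIT4 held 161, 201, 68.4 and 90.4 RPKM. It was lower in HIF1A-KD in all 4 numbers, while libraries 1 and 2 lay above 3 and 4 in both lines and the groups overlapped. The log2 change of DDIT4 was −0.39 (SE 0.44, adjusted p = 0.953, 0.161 with the block).

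DDIT4 also answers to ATF4, a factor of the amino acid and endoplasmic reticulum stress response. Of 10 other ATF4 targets 0 passed either fit, 7 lay below 0 and the median log2 change was −0.10. The most abundant of them, PSAT1 and PHGDH of serine synthesis, had log2 changes of −0.08 and −0.12. WSB1, part of a ubiquitin ligase, held 29.2, 19.1, 15.98 and 14.2 RPKM in shCtrl 1 to 4 and 30.1, 24.7, 20.8 and 17.0 RPKM in HIF1A-KD 1 to 4. Both lines had the same order of libraries, with HIF1A-KD higher in each number (log2 change 0.26, SE 0.26, adjusted p = 0.938, 0.236 with the block).

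The other targets were ANKRD37 (chr4:186317840-186321390, plus strand, hg19), RAB20 (chr13:111175413-111214071, minus strand, hg19) and TMEM45A. ANKRD37, an ankyrin repeat gene, held 10.6, 8.08, 32.9 and 3.54 RPKM in shCtrl 1 to 4 and 15.1, 11.1, 2.77 and 34.6 RPKM in HIF1A-KD 1 to 4. The log2 difference between the lines was −3.53 in number 3 and 3.25 in number 4, and 0.51 and 0.45 in numbers 1 and 2. RAB20, a small GTPase gene of vesicle traffic, held 1.15, 1.01, 2.29 and 0.499 RPKM in shCtrl 1 to 4 and 0.871, 1.01, 0.365 and 1.29 RPKM in HIF1A-KD 1 to 4. RAB20 had the same highest libraries as ANKRD37, and its values rest on 26 to 181 reads in a library. TMEM45A, a transmembrane protein gene, held 56.8 ± 11.5 in shCtrl and 58.6 ± 19.2 RPKM in HIF1A-KD (SD, n = 4 each).

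**Figure D3:**
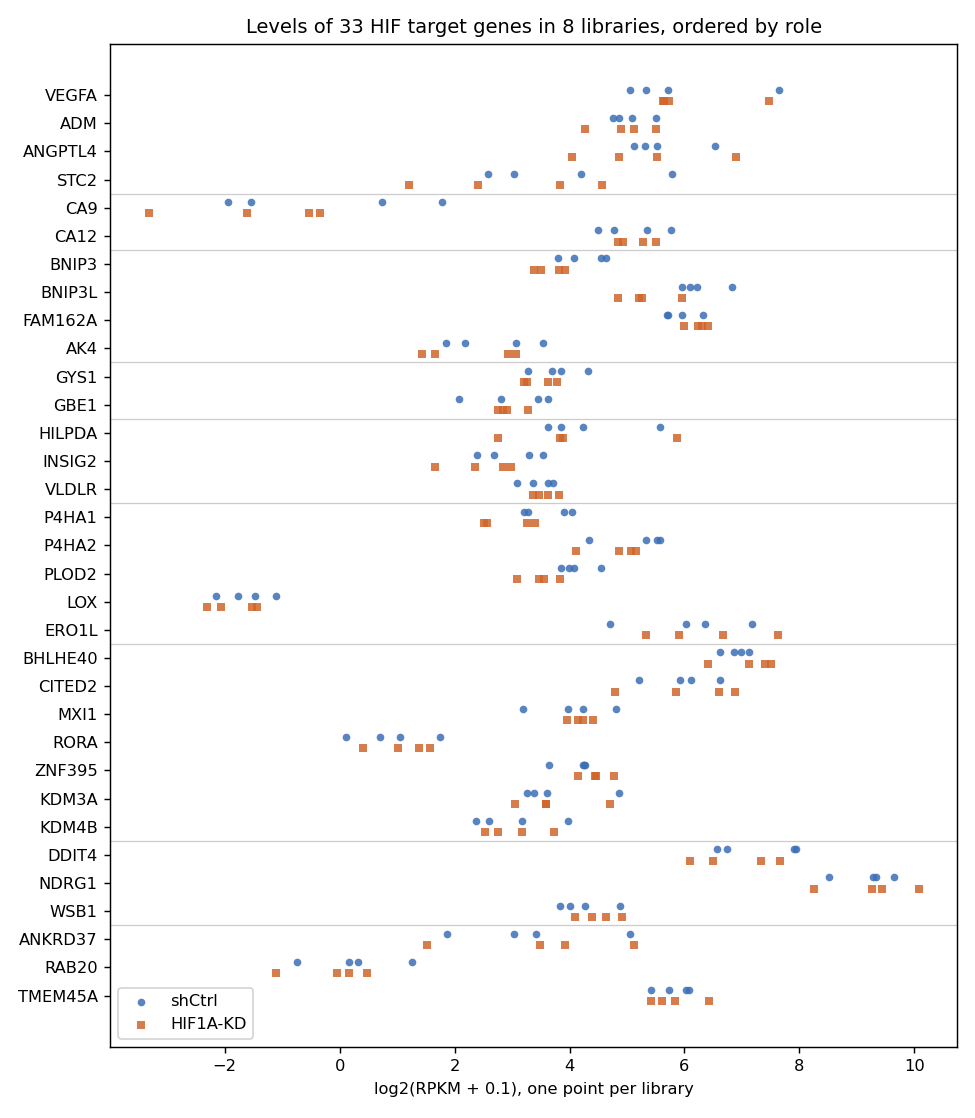
Level of each of the 33 targets as log2(RPKM + 0.1) on the horizontal axis, with 1 point per library, circles for shCtrl and squares for HIF1A-KD, and lines between groups of like function. Levels run from LOX, below 0.5 RPKM in every library, to NDRG1, at 304 to 1083 RPKM, and PLOD2 is the only tested target whose 2 groups of points do not overlap.

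A set of targets was high in 1 library of each line, and not in libraries of the same number. The highest shCtrl library was 3 and the highest HIF1A-KD library was 4 for 8 of 32 targets (ANGPTL4, HILPDA, ERO1L, MXI1, KDM3A, NDRG1, ANKRD37 and RAB20), 25.0% against 8.72% of all tested genes. This grouping was chosen after the values were seen and is given as a description with no test. ANKRD37 was 4.45 times the mean of the other 3 controls in shCtrl 3 and 3.59 times the mean of the other 3 HIF1A-KD libraries in HIF1A-KD 4. The same ratios were 3.14 and 4.95 for HILPDA, 2.72 and 2.44 for KDM3A, 2.30 and 3.90 for ANGPTL4, 2.50 and 2.92 for ERO1L and 2.58 and 1.72 for RAB20. They were smaller for NDRG1, at 1.48 and 2.01, and for MXI1, at 1.93 and 1.22. The collagen hydroxylases, VEGFA, CITED2 and DDIT4 did not have this order. The highest library was 1 in both lines for 6 targets (VEGFA, ADM, STC2, BHLHE40, CITED2 and WSB1), 18.8% beside 18.7% of all genes.

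**Figure D4:**
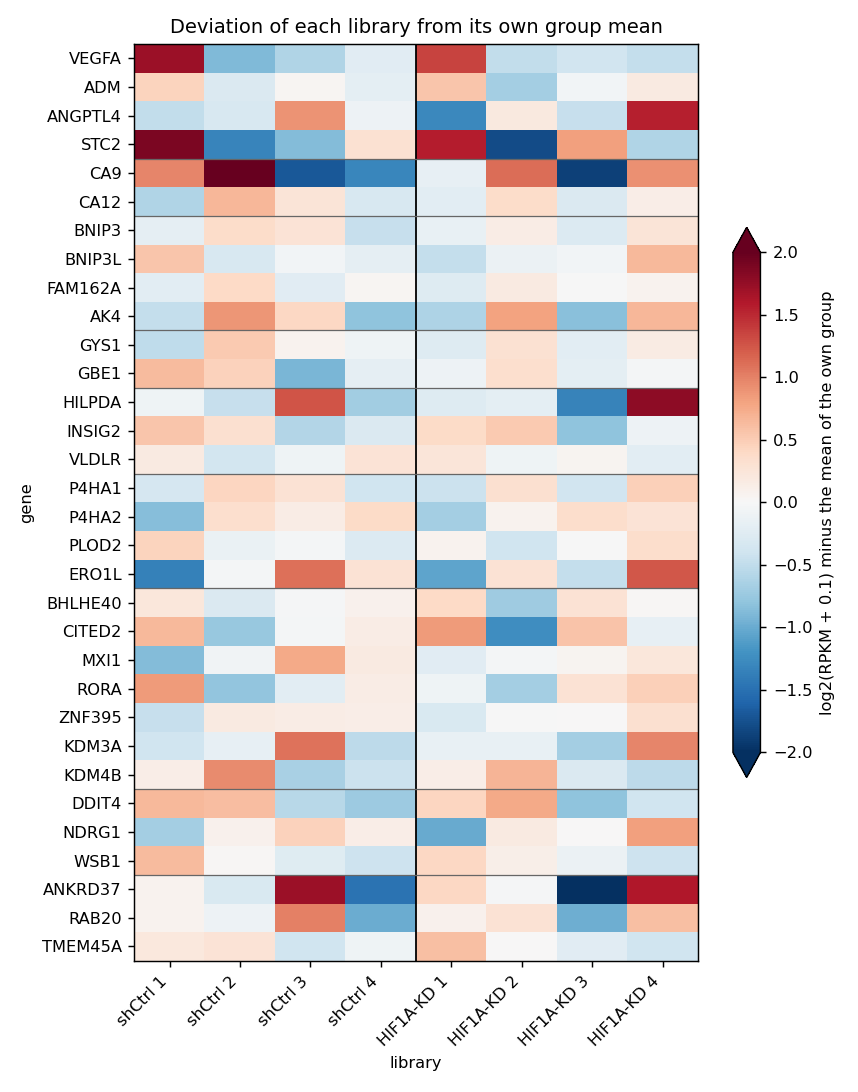
Deviation of each library (horizontal axis) from the mean of its own line for each tested target (vertical axis), as log2(RPKM + 0.1), from blue (below the mean) to red (above it), with colours held at −2 and 2. Red cells in shCtrl 3 and HIF1A-KD 4 mark ANGPTL4, HILPDA, ERO1L, KDM3A, ANKRD37 and RAB20, and red cells in the libraries numbered 1 mark VEGFA and STC2.

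Library number held the largest share of the spread for 24 of the 32 targets (75.0%), close to the 74.4% of all tested genes. There are more numbers than lines, which alone gives numbers a larger part of a raw sum of squares. Each share is thus to be read beside that of all genes, and not number against line. The largest share lay between the lines for 4 targets (12.5%, beside 11.8% of all genes). For another 4 most of it lay in neither number nor line (12.5%, where neither was largest for 13.8% of all genes). Splitting the sum of squares of log2(RPKM + 0.1) over the 8 libraries gave medians over the 32 targets of 6.87% between the lines, 67.2% between numbers and 21.2% in neither, beside 8.32%, 66.4% and 15.7% over all tested genes. The share in neither was 97.6% for ANKRD37, 89.4% for RAB20, 87.6% for KDM3A and 86.8% for HILPDA. A share over 85%, a limit set after the values were seen, was thus found in 4 of 32 targets (12.5%) and in 0.714% of all tested genes. At the other end BNIP3L, PLOD2 and BNIP3 had 62.7%, 58.2% and 53.8% of their spread between the lines.

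**Figure D5:**
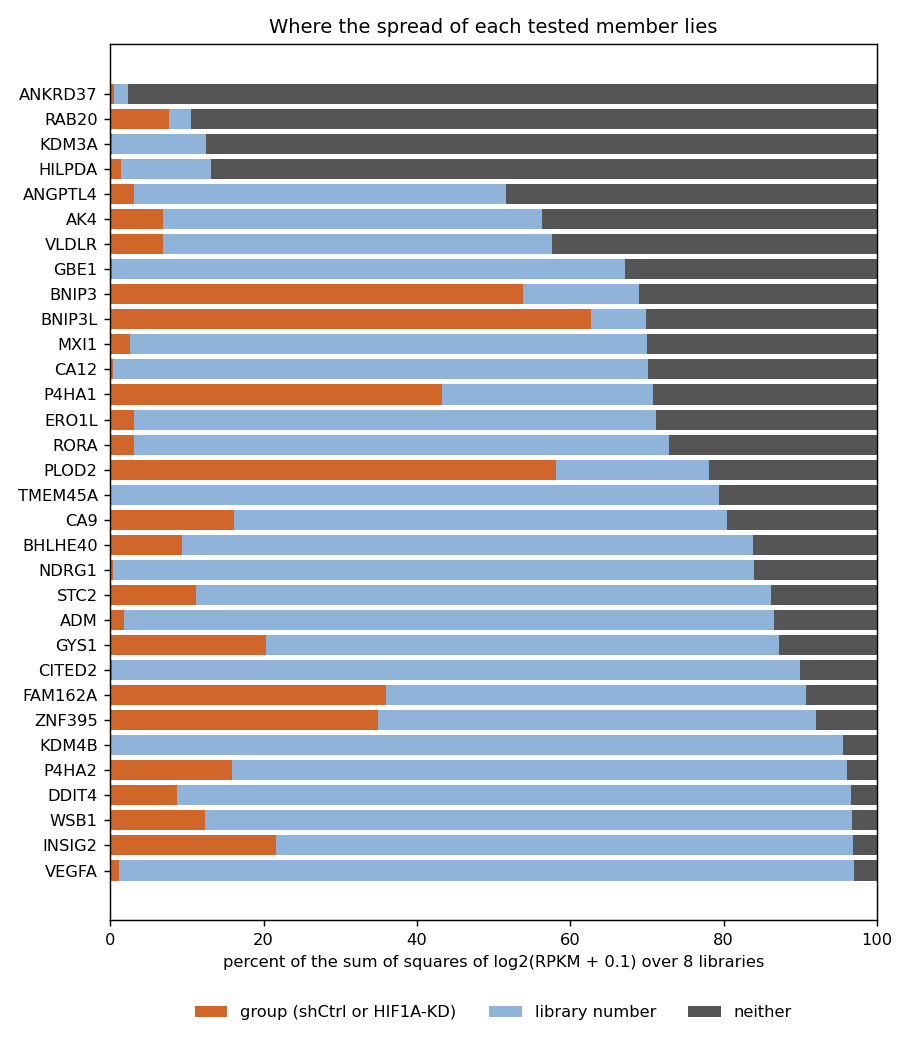
Share of each tested target's sum of squares over the 8 libraries (horizontal axis, percent) that lies between the lines (orange), between library numbers (blue) and in neither (grey). ANKRD37, RAB20, KDM3A and HILPDA lie mostly in neither, VEGFA mostly between numbers (95.9%), and BNIP3L, PLOD2, BNIP3 and P4HA1 have their largest part between the lines.

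Oxygen sensors and glycolytic HIF targets held genes with the same highest libraries. EGLN1, a prolyl hydroxylase gene, held 3.30, 3.97, 5.22 and 2.36 RPKM in shCtrl 1 to 4 and 3.31, 3.05, 2.77 and 5.09 RPKM in HIF1A-KD 1 to 4, and 95.9% of its spread lay in neither. PDK1, the kinase that restrains pyruvate entry into mitochondria, held 2.50 in shCtrl 3 and 3.03 RPKM in HIF1A-KD 4, against at most 1.91 RPKM in the other 6 libraries. PFKFB3 and HK2 also had their highest values in shCtrl 3 and HIF1A-KD 4, and 4 of the 22 glycolytic HIF targets did so, with PKM. KRT13, a keratin of the upper esophageal layers, was highest there as well, at 676 in shCtrl 3 and 1081 RPKM in HIF1A-KD 4, though HIF1A-KD 2 was close at 1034 RPKM, and it was the only 1 of the 10 squamous markers with that order. These genes outside the targets were picked with their values in view. Over all genes, shCtrl 3 and HIF1A-KD 4 had median deviations of −0.05 and −0.05 from their line. Over all tested targets the medians were 0.006 and 0.24. The 8 targets had 1.04 and 1.11, but they were chosen for being highest in these libraries, which makes such values high. HIF1A-KD 4 had the fewest reads of all libraries and shCtrl 3 the most of its line. The part of depth and of cell layers with KRT13 in this pattern was not tested. Dimethyloxalylglycine and its vehicle are assigned to no library, so their part could not be tested either.

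Without shCtrl 3 and HIF1A-KD 4, a setting added after the data were seen, 0 of 32 targets passed (limma), 20 lay below 0 and the median log2 change was −0.10. In that setting the log2 change was −0.51 for ANGPTL4, −0.41 for HILPDA, −0.01 for KDM3A, 0.21 for ANKRD37 and 0.27 for ERO1L. BNIP3, P4HA1 and PLOD2 had −0.61, −0.73 and −0.76.

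The paralogues of the targets, close relatives that are not textbook HIF targets as a group, and the glycolytic HIF targets stand beside these values. Of 40 paralogues 29 were tested, 15 lay below 0 and the median log2 change was −0.0029. PLOD3, a second lysyl hydroxylase gene, was 15.2 ± 1.45 in shCtrl and 9.17 ± 1.45 RPKM in HIF1A-KD (SD, n = 4 each) with no overlap. PLOD3 fell in the fit with the block (log2 change −0.73, adjusted p = 0.0495) and did not pass without it (0.227). The blocked call of PLOD3 was lost without number 1 (0.218), 2 (0.265) or 4 (0.0753). CA2, the most abundant paralogue, had a log2 change of −0.34. Of the 22 glycolytic HIF targets 0 passed limma in either fit, 17 lay below 0 and the median log2 change was −0.21. The most abundant, GAPDH and PKM, had −0.42 and −0.21. All these comparisons use the same libraries as the targets.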

How the data were processed

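The authors' upstream tools included HTSeq 0.6.1, TopHat2 2.0.13, Bowtie2 2.2.3.0 and Picard 1.129, per the submitters' processing notes, and the builds GRCh37/hg19 and GRCh38/hg38 appear there with no role. Whether counting was stranded is not stated in the labels, so reads of a gene and of an overlapping antisense gene cannot be told apart. The expression table deposited by the authors is named for raw counts but its values are RPKM. Multiplied by gene length they were whole numbers of 1 step, set by the library, for 100.0% of values above 0 with a readable length. The limit was 0.01 read for low values and grew with the reads for high ones, so it does not check the highest values. The reads and totals come from these steps. The second deposited table, made by the authors with a tool no label names, holds for each of groups A and B a signal (the mean of scaled reads), a ratio, its log2 and p-values, and its log2 changes are not on the scale used here. Its header does not say which line A and B are. The means of scaled reads of the 4 shCtrl columns matched A, and those of HIF1A-KD matched B, within 1% for 100% of 13469 genes, and this sets the direction of its changes.

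In R 4.3.3, log2(RPKM + 0.1) was tested two-sided with limma 3.58.1, moderated with a trend and robustly. Genes needed 0.5 RPKM or more in 4 or more libraries. P-values had Benjamini-Hochberg adjustment over all 11899. The script was tested on simulated data. Deviations from the group mean correlated between libraries of the same number at 0.754, 0.730, 0.252 and 0.257 for numbers 1 to 4. The numbers were taken as pairs in the blocked fits, which the labels do not state. For numbers 3 and 4 the correlations do not bear this pairing out. Correlations were higher across numbers for shCtrl 3 with HIF1A-KD 4 (0.463) and for shCtrl 4 with HIF1A-KD 3 (0.613).

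The targets and gene lists were chosen with earlier results of these data known. Values in every library are given for the 4 lowest and 4 highest log2 changes, the 6 most abundant targets, those whose groups do not overlap and those at an adjusted p of 0.05 in the authors' table. They are also given for BNIP3, ANGPTL4, HILPDA, KDM3A, ANKRD37 and RAB20, chosen after their values were seen. Other genes named are HIF1A, EPAS1 and ARNT, and from each list the genes past the threshold and the 2 most abundant. A gene that this rule took is not reported here. Promoter windows come from RefSeq (GRCh38.p14) and were not joined to the hg19 coordinates of the table.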

Additional observations from a re-analysis of the deposited data

Results flagged for a closer look

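The outermost library of each line was compared with its neighbours for all 33 targets by Dixon's ratio, which is the gap to the nearest library divided by the range, both taken on log2(RPKM + 0.1). Of 66 groups of 4 libraries 2 passed the 95% critical value, and chance alone passes about 1 in 20 such groups. VEGFA in HIF1A-KD 1 was high at 178 RPKM, with a ratio of 0.943. ZNF395 in shCtrl 1 was low at 12.4 RPKM, with a ratio of 0.933.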

How the results depend on the processing

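Over 25 alternative settings, 14 of the 32 tested targets kept the sign of their log2 change, 10 below and 4 above 0, and 18 did not, in 82 of 797 values. No target passed in any setting except STC2 in the fit with the replicate block without number 3 (adjusted p = 0.0196) and PLOD2 in the same fit without number 4 (0.0499), so the count of targets called ran from 0 to 1 with a replicate left out. The replicate block changed no call of a target. All genes called numbered 3 with a pseudocount of 1 or 0.01, 1 with no filter, 11 with at least 1 RPKM in all 8 libraries, 8 with median-of-ratios scaling, 218 with the replicate block, 350 with limma-voom and the replicate block, 3 without trend and robust moderation, 102 with libraries 1 and 2 against 3 and 4 as a term, 0 with numbers 1 and 2 only, 0 without both shCtrl 3 and HIF1A-KD 4, and 0 to 195 with a replicate left out. Without the block that count was 3 without shCtrl 1, 1 without shCtrl 2, 0 without shCtrl 3, 0 without shCtrl 4, and, leaving out HIF1A-KD 1 to 4 in turn, 1, 0, 2 and 0. With the block it was 33 without number 1, 1 without number 2, 195 without number 3 and 182 without number 4. The cause of these differences was not tested. The median log2 change of the targets ran from −0.292 to 0.0449 with a replicate left out.

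Signs that turned were these log2 changes. Median-of-ratios scaling gave CA12 −0.018, CITED2 −0.00436, KDM4B −0.052 and TMEM45A −0.0501. Limma-voom gave CA12 −0.0194, KDM4B −0.0308 and TMEM45A −0.0481, and with the replicate block CA12 −0.0162, CITED2 −0.00203, KDM4B −0.0697, NDRG1 −0.00421 and TMEM45A −0.0471. Numbers 1 and 2 only gave CITED2 −0.0803, RORA −0.226, KDM3A 0.0853, KDM4B −0.123 and NDRG1 −0.0513. Numbers 3 and 4 only gave ADM 0.0402, GBE1 0.391, VLDLR −0.0541, ERO1L −0.0106, MXI1 −0.192, ANKRD37 −0.137 and TMEM45A −0.053. Without both shCtrl 3 and HIF1A-KD 4 the values were RORA −0.0406, KDM4B −0.0297 and NDRG1 −0.0528. With a replicate left out the log2 change ran from −0.259 to 0.762 for VEGFA, −0.287 to 0.125 for ADM, −0.847 to 0.162 for ANGPTL4, −0.15 to 0.269 for CA12, −0.876 to 0.0306 for AK4, −0.345 to 0.202 for GBE1, −1.06 to 0.628 for HILPDA, −0.0065 to 0.273 for VLDLR and −0.142 to 0.842 for ERO1L. It ran from −0.221 to 0.477 for CITED2, −0.149 to 0.389 for MXI1, −0.0778 to 0.496 for RORA, −0.547 to 0.538 for KDM3A, −0.213 to 0.329 for KDM4B, −0.204 to 0.407 for NDRG1, −0.855 to 1.4 for ANKRD37, −0.907 to 0.284 for RAB20 and −0.186 to 0.149 for TMEM45A. Depth limits CA9, with at most 223 reads in a library, RAB20, with at most 181, and LOX, with at most 103.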
